A study of Mus musculus with 2 samples.

Results

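Fibulins, fibrillins, elastin and the microfibril-associated glycoproteins were examined as 1 group of 10 genes, chosen because Efemp1 had risen on these arrays and its relatives could then be looked at. The members are Efemp1, Efemp2, Fbln1, Fbln2, Fbln5, Fbn1, Fbn2, Eln, Mfap2 and Mfap5, and they were found as the non-control probes named by a RefSeq transcript of each gene. They hold 14 of 27235 gene-named probes and are 10 of 20660 named genes. RNA came from primary chondrocytes of 6-day-old C57BL/6J mice, held for 48 h in silicon stretch chambers with a fibronectin coat. A sample taken before loading was compared with a sample taken 24 h after 30 min of cyclic tensile strain (10% elongation, 0.5 Hz). The number of animals behind each sample was not given in the sources used here. The sample before loading had received no strain. An unloaded culture at 24 h was not analysed here, so that the effects of strain and of a further 24 h in culture cannot be told apart.

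Elastic fibres are built from an elastin core and a sheath of microfibrils. Fibrillins polymerise into the microfibrils, the microfibril-associated glycoproteins decorate them, and the shorter fibulins carry tropoelastin and its crosslinking enzymes to them. Microfibrils also store latent TGF-β and BMPs. Cartilage holds fibrillin microfibrils around its cells, whereas elastin itself is a product mainly of arteries, lung, skin and elastic cartilage.

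Each sample was hybridised to 1 one-colour array, and both arrays lay on 1 slide. Because each time point had a single array, the differences have no replicate check, and neither a test nor a p-value is given. A log2 ratio below is the scaled log2 intensity at 24 h minus that before loading, each set relative to the 75th percentile of its array, which was an intensity of 466 on both. The error beside it comes from the scanner software's error of both spots and covers within-array error only. It was nearly constant for bright probes with 1 spot, such as those of Efemp1 and Col2a1 (0.204 each). For such probes, passing the error is therefore close to passing a fixed cut, not a measured spread. Where a probe had 8 or more spots (264 probes), the median SD among its spots was 0.0855. In genes with 2 or more detected probes, these had a median range of 0.188. A gene was represented by its brightest probe, and counted as detected where the scanner software marked that probe well above background at both time points. It counted as abundant where its mean over both arrays lay above the 75th percentile. Between 57.7% and 59.1% of the non-control spots were well above background and 0 were saturated. All 11 chondrocyte markers were detected and abundant, and Col2a1, the main cartilage collagen, had a log2 ratio of -0.07 ± 0.20. The list ran from -0.82 (Col11a1) to 0.56 (Matn1), with 4 markers higher and 3 lower beyond the within-array error. That was 63.6% of the 11, against 43.4% of all detected genes.

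All 10 members were detected and 7 were abundant. Efemp1 and Mfap2 were more than 2-fold higher 24 h after loading, Fbln1 and Fbln2 were lower but within 2-fold, and the other 6 members had log2 ratios between -0.07 and 0.28. In bulk RNA such as this, fewer cells of a type and less RNA per cell cannot be told apart. A rise beyond 2-fold was found in 0.668% of the 14231 detected genes and a fall beyond 2-fold in 1.83% (2.49% in either direction), against 2 and 0 of the 10 members. Among the 8564 abundant genes these shares were 0.315%, 0.899% and 1.21%, against 2 higher and 0 lower of the 7 abundant members. The rise of Efemp1 was part of the choice of members. Nothing is therefore read from that count, or from the rank of Efemp1 and its lead over other members. The log2 ratio was beyond the within-array error in 3 members upward (Efemp1, Mfap2 and Mfap5) and 2 downward (Fbln1 and Fbln2), 5 of 10, near the 43.4% of all detected genes. The median log2 ratio of the members was 0.08, against -0.01 over all detected genes. Efemp1 is counted in that share and in this median, so nothing is read from either.

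**Figure D1:**
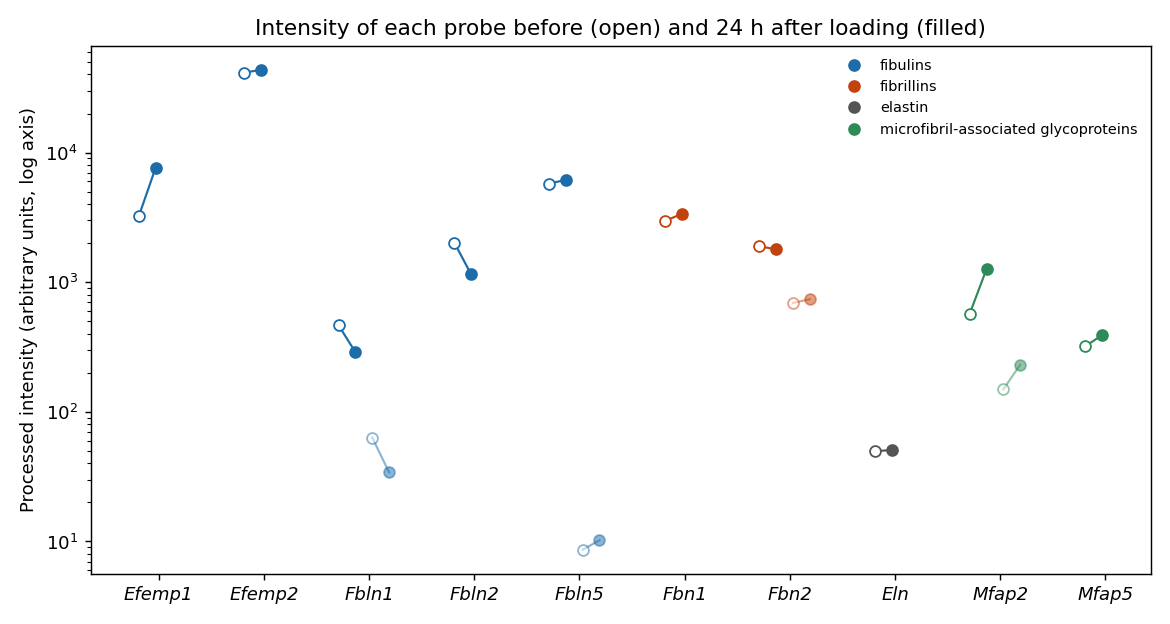
Processed intensity (log axis, arbitrary units) of every probe of the 10 members before loading (open points) and 24 h after (filled points), with paler points for dimmer probes; 1 array each, no error bars. Lines climb for Efemp1 and both Mfap2 probes and descend for both Fbln1 probes and Fbln2. Heights of different probes cannot be compared.

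Efemp1 encodes an extracellular glycoprotein of the short fibulins, made of calcium-binding EGF-like repeats and a fibulin-type end domain. Its only probe gave 3216 intensity units before loading and 7608 at 24 h. The level was 2.37-fold higher at 24 h, a log2 ratio of 1.24 ± 0.20. This was rank 41 from the top of the 14231 detected genes and rank 10 of the 8564 abundant ones. Of the 14 other detected spots within 100 µm on the array, 0 had changed more than 2-fold and their median log2 ratio was -0.12. The ratio passed 2-fold by less than 2 within-array errors.

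Mfap2 encodes MAGP-1, a small glycoprotein bound to the fibrillin microfibril that also binds TGF-β family growth factors. Its brighter probe read 573 before loading and 1267 at 24 h, 2.21-fold higher, with a log2 ratio of 1.14 ± 0.20. That ratio passed 2-fold by less than its within-array error. The dimmer probe had 149 before and 231 at 24 h, a log2 ratio of 0.63 ± 0.21. Both probes were therefore higher at 24 h, but only the brighter passed 2-fold, and the mean of both, 0.89, did not. The brighter probe ranked 15 from the top among abundant genes. Of the 19 other detected spots within 100 µm of it, 0 had changed more than 2-fold. The ratios of Efemp1 and Mfap2 differed by 0.10 ± 0.29 on the log2 scale, less than the within-array error.

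Sequences before the annotated starts of 3 genes are shown because Efemp1 and Mfap2 passed 2-fold and Fbln1 went the other way. Fbln2 was lower too (log2 ratio -0.81), but its whole window lay inside the annotated gene and is not shown. The stretches shown are RefSeq sequences of build GRCm38.p6, all on the forward strand, and end where the annotated gene begins. Matches to the motifs searched are in capitals.
Efemp1, chr11:28852955-28853153: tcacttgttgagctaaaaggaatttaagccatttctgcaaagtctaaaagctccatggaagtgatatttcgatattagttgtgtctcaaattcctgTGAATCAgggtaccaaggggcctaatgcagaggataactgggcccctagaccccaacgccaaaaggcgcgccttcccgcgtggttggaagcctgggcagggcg
Mfap2, chr4:141010174-141010423: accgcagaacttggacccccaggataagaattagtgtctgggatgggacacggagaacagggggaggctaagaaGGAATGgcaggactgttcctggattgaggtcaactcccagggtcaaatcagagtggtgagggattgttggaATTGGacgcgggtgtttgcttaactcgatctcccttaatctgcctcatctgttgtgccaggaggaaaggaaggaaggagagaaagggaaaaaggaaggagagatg
Fbln1, chr15:85205699-85205948: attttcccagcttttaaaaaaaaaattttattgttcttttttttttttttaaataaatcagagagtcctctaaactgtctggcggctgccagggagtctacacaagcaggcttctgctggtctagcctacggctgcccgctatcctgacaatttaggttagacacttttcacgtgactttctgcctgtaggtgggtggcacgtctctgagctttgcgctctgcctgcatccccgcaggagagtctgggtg

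Windows were listed for 7 of the 10 members, 12 windows in all, and Fbn2, Eln and Mfap5 had no entry. The 250 bases before each start were searched on both strands for the TATA box spelled TATAAA, the CCAAT box by its own letters, the GC box spelled GGGCGG, the AP-1 pattern TGANTCA, the TEAD pattern GGAATG and, by name alone, the NF-κB site. The matches in the stretches shown do not overlap. Efemp1 held TGAATCA at -154, counted from its annotated transcript start. This stretch matched TGANTCA only through the N, which allows any base. The pattern TGANTCA was present in 6.75% of all 32851 windows of that length. Mfap2 held GGAATG at -176 (12.6% of windows) and, on the reverse strand, CCAAT at -105 (33.8%). The Fbln1 stretch held 0 of the 6 motifs. Outside the stretches shown, GGGCGG (32.7%) lay at -29 of Efemp1. A further annotated start of Mfap2 had 2 GC boxes and the NF-κB site (7.25%), and a further start of Fbln1 had 1 of each. Among members not shown, GGGCGG also lay in windows of Fbn1, Fbln2, Fbln5 and Efemp2, and CCAAT at -150 of Fbln5. TATAAA, in 12.4% of all windows, was found in 0 of the 12 windows. These matches are descriptions of letters and no factor was measured at them.

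Fbln1 encodes the first described fibulin, a larger member that binds fibronectin and elastin. Its brighter probe read 465 before loading and 289 at 24 h, a log2 ratio of -0.69 ± 0.21. The dimmer probe had 63.3 before and 34.2 at 24 h, a log2 ratio of -0.89 ± 0.28. Both probes were lower at 24 h, beyond their errors and within 2-fold. Of all detected genes, 95.7% had a higher log2 ratio than the brighter probe.

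Fbln2 encodes the closest relative of Fbln1, also a large fibulin of basement membranes and microfibrils. Its only probe read 2019 before loading and 1149 at 24 h, 1.76-fold lower, with a log2 ratio of -0.81 ± 0.20. The ratio lay at rank 124 from the bottom of the 8564 abundant genes and within 2-fold. Fbln1 and Fbln2 differed from each other by 0.13 ± 0.29. Efemp1 exceeded them by 1.93 ± 0.29 and 2.06 ± 0.29. Its rise was part of the choice of members, so these differences are a description only.

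Efemp2 (fibulin-4) and Fbln5 (fibulin-5) encode the short fibulins needed for elastic fibre assembly, which bind lysyl oxidase and tropoelastin. The probe of Efemp2 read 41352 before loading and 43379 at 24 h, a log2 ratio of 0.07 ± 0.20. The brighter probe of Fbln5 had 5763 before and 6154 at 24 h, a log2 ratio of 0.10 ± 0.20. Both differed between the arrays by less than the within-array error. A further Fbln5 probe, at 8.65 before and 10.2 at 24 h, was not well above background at either time and gave no usable ratio. Efemp1 exceeded Efemp2 by 1.17 ± 0.29 and Fbln5 by 1.15 ± 0.29 on the log2 scale.

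**Figure D2:**
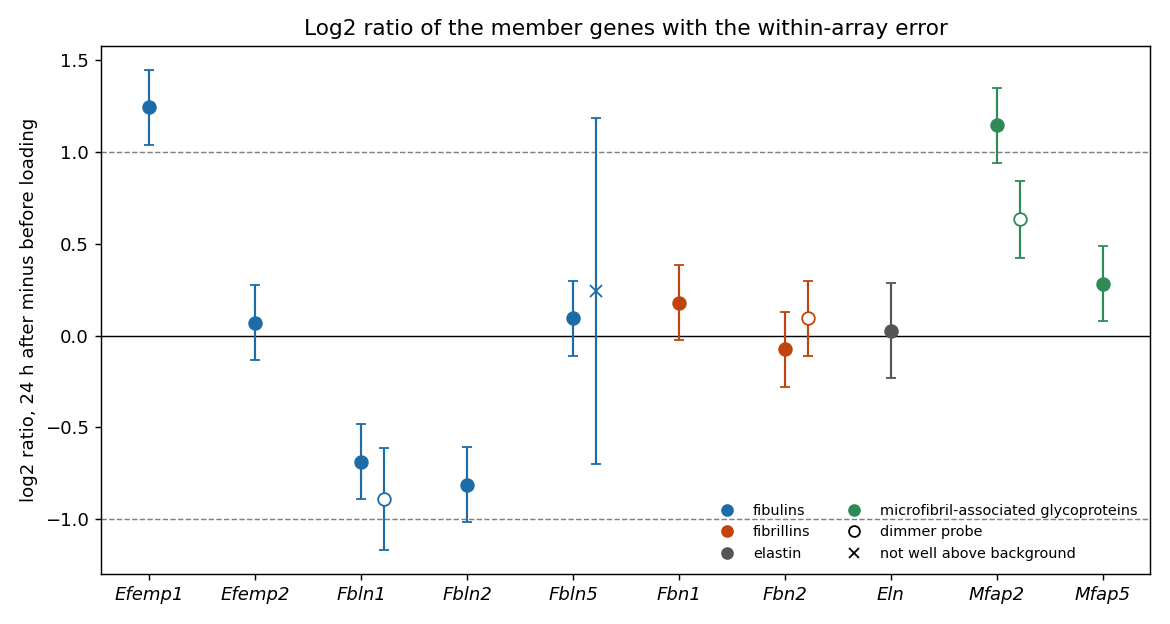
Log2 ratio (24 h after minus before loading) of each member, with the within-array error as bars; filled points are the brightest probes, open points dimmer probes and the cross a probe not well above background. Dashed lines mark 2-fold. Efemp1 (1.24) and the brighter Mfap2 probe (1.14) lie above the upper line, and Fbln1 (-0.69) and Fbln2 (-0.81) lie between 0 and the lower line.

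Fbn1 encodes fibrillin-1, the main structural protein of microfibrils and the gene of Marfan syndrome. Its intensity was 2965 before loading and 3352 at 24 h, a log2 ratio of 0.18 ± 0.20. Fbn2 encodes fibrillin-2, the fibrillin more prominent in development. Its brighter probe read 1890 before and 1794 at 24 h, a log2 ratio of -0.07 ± 0.20, and its dimmer probe had 692 and 739, a log2 ratio of 0.10 ± 0.20. Neither fibrillin moved beyond its within-array error, and the sign of Fbn2 differed between its probes and turned positive on scaling to array medians (0.02) or spike-in controls (0.04).

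Eln encodes tropoelastin, the soluble precursor of elastin. Its only probe was dim, reading 49.8 before loading and 50.7 at 24 h, and its log2 ratio of 0.03 ± 0.26 had a wider error than the other members. The lowest intensities well above background were 17.3 and 17.8. Mfap5 encodes MAGP-2, the relative of Mfap2 on microfibrils. Its intensity was 322 before and 391 at 24 h, a log2 ratio of 0.28 ± 0.21, below that of Mfap2 by 0.86 ± 0.29.

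Among the members, the log2 ratio of Efemp1 exceeded that of every other member except Mfap2 by at least 0.96 on the log2 scale (against Mfap5, within-array error 0.29). The group was chosen because Efemp1 rose, so this lead is a description only. In the order of ratios, Efemp1 and Mfap2 came first and lay within the error of each other. Mfap5, Fbn1, Fbln5, Efemp2, Eln and Fbn2 followed, with Mfap2 above Mfap5 by 0.86 ± 0.29. From Mfap5 to Fbn2, each gene differed from the next by less than the error. Fbln1 and Fbln2 came last, with Fbn2 above Fbln1 by 0.61 ± 0.29.

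**Figure D3:**
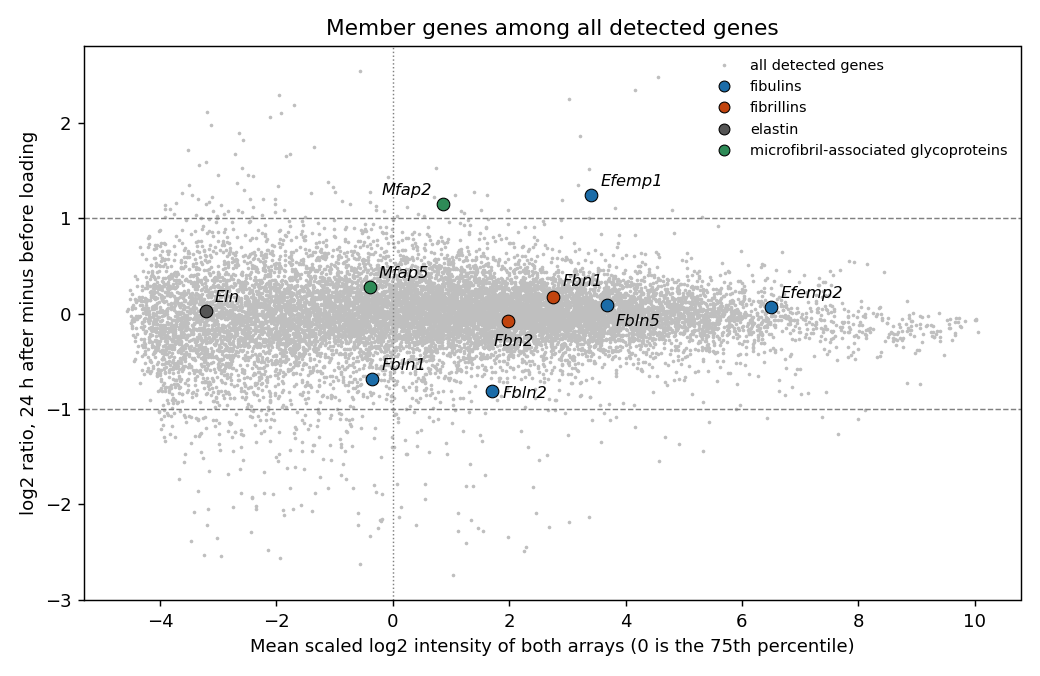
Log2 ratio (24 h after minus before loading) against the mean scaled log2 intensity of both arrays for the 14231 detected genes (grey) and the 10 members (coloured by family); 0 on the horizontal axis is the 75th percentile and dashed lines mark 2-fold. Efemp1 and Mfap2 lie above the cloud at abundant levels, and 6 members lie inside it near 0.

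The 3 abundant genes whose log2 ratio lay nearest to that of Efemp1 were Apoe (1.24), Sfrp2 (1.25) and Gprasp2 (1.23), each within 0.02 of it. Apoe encodes apolipoprotein E and Sfrp2 a secreted antagonist of Wnt signalling. With 2 arrays, likeness is a difference of log2 ratios and nothing more.

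The members work with other genes of the elastic fibre, and 51 of these were listed by role. Of them 42 were detected and 30 were abundant. By the brightest probe, 0 were more than 2-fold up and 1, Ltbp2, was more than 2-fold down, against 0.668% and 1.83% of all detected genes. The log2 ratio was beyond the within-array error in 14 upward and 12 downward, 61.9% of the 42, against 43.4% of all detected genes (2910 upward and 3262 downward). The error is wider for dim probes and smaller for probes with several spots, such as those of Tgfb1 and Tgfb3 (0.07 each). These shares are therefore not fully comparable, and nothing is read from their difference. The median of the list was 0.08, against -0.01 over all detected genes.

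Ltbp2 encodes a latent TGF-β binding protein that associates with fibrillin microfibrils without binding latent TGF-β itself. Its intensity was 3301 before loading and 1409 at 24 h, 2.34-fold lower, with a log2 ratio of -1.23 ± 0.20 on its only probe. Of its relatives that carry latent TGF-β, Ltbp1 had a log2 ratio of -0.37, Ltbp3 0.45 and Ltbp4 0.18. The dimmer probes of Ltbp3 and Ltbp4 had 0.13 and 0.39. Tgfb1, Tgfb2 and Tgfb3, the growth factors held by these complexes, had log2 ratios of 0.44, 0.67 and 0.53, all within 2-fold and beyond their errors.

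The lysyl oxidases crosslink elastin and collagen. Loxl1, the enzyme most tied to elastic fibres, had log2 ratios of 0.56 and 0.64 on its 2 probes. Lox had -0.61 and -0.54, Loxl3 had -0.45, and Loxl4 had -0.95, or -0.56 by its dimmer probe. Loxl2 had -0.38 on its brightest probe but -0.90 and -1.11 on the 2 dimmer ones, and only the last passed 2-fold. Every detected probe of Lox, Loxl2, Loxl3 and Loxl4 was therefore lower at 24 h beyond its error, and both probes of Loxl1 were higher.

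Among the remaining partners, the highest log2 ratio in the list was that of Itga8 (0.72 ± 0.26), a dim integrin subunit, which came to 0.22 with normexp background correction. It was followed by Tgfb2 and by Slc2a10 (0.58 ± 0.20), the glucose transporter gene of arterial tortuosity syndrome. The lowest after Ltbp2 and Loxl4 was Thsd4 (-0.91 ± 0.27), an ADAMTS-like promoter of microfibril assembly, also dim, which came to -0.37 with normexp correction. Fbln7, a more distant fibulin, had 0.52 on one probe and 0.15 on another of nearly the same intensity. Fn1, which encodes the fibronectin on which fibrillin assembles, had a log2 ratio of -0.15 ± 0.20. Emilin1 and Emilin2, glycoproteins at the elastin and microfibril interface, had 0.14 and 0.26.

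**Figure D4:**
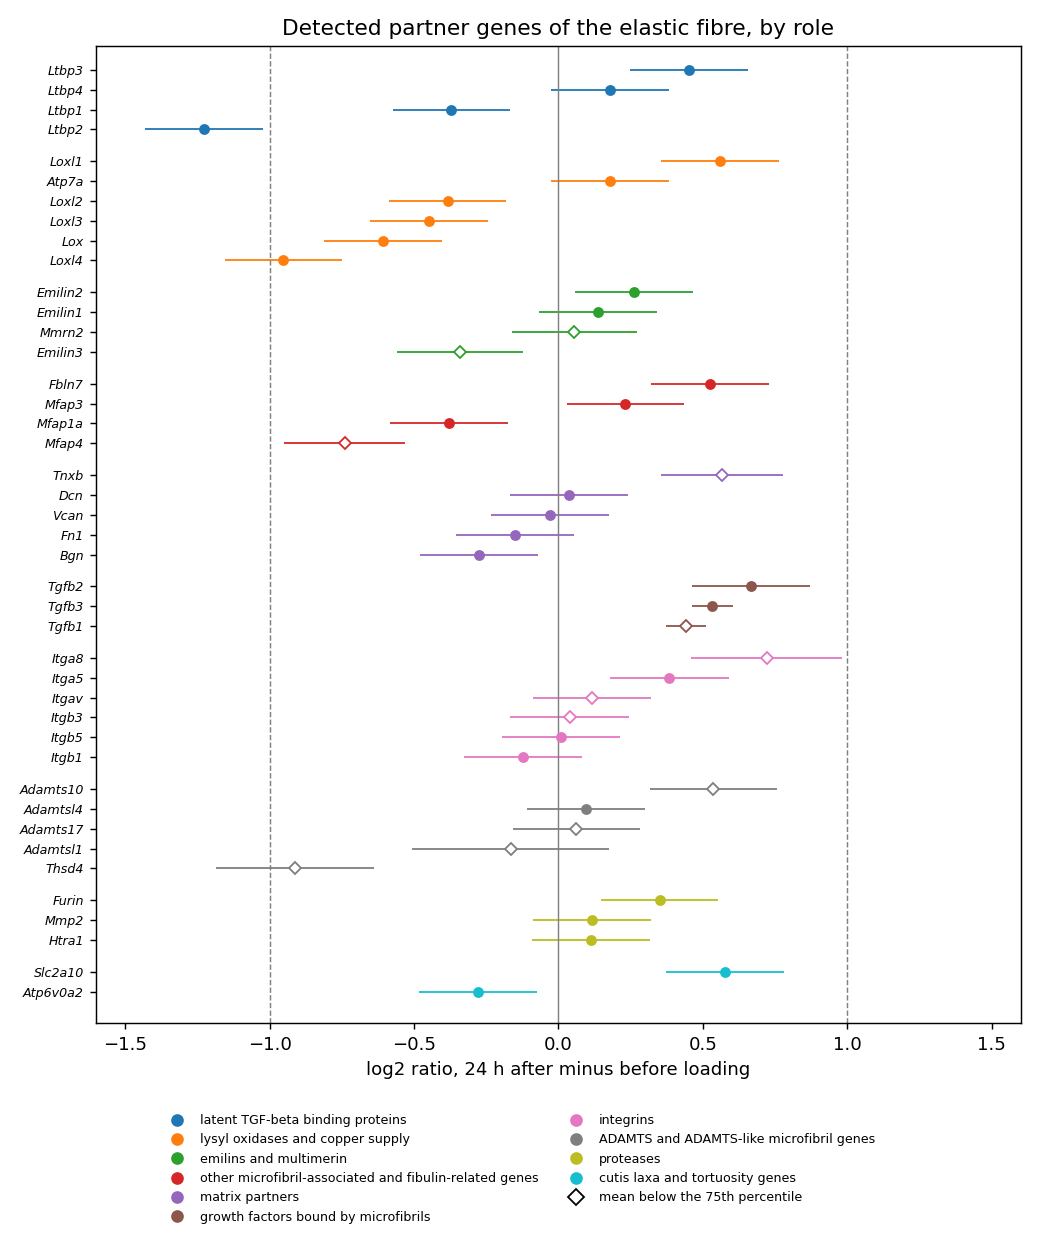
Log2 ratio (24 h after minus before loading) of the 42 detected partner genes, grouped by role, with the within-array error as bars; open diamonds are genes with a mean below the 75th percentile and dashed lines mark 2-fold. Ltbp2 (-1.23) is the only one beyond a dashed line, and 4 of the 5 lysyl oxidase genes lie left of 0.

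Genes of elastic fibres are also products of fibroblasts and smooth muscle cells. The 11 chondrocyte markers had 0 beyond 2-fold, a median log2 ratio of 0.06 and a summed intensity of 1284835 before loading and 1274212 at 24 h. A summed intensity, here and below, adds probes whose heights cannot be compared. It follows the brightest probes and is not an amount of cells. Col2a1 alone gave 499543 of the chondrocyte sum before loading. Of 10 fibroblast and perichondrium markers, all 10 were detected and 1 was more than 2-fold higher, Dpt, which encodes the matrix protein dermatopontin, at 59.2 before and 253 at 24 h (log2 ratio 2.10, or 1.34 with normexp correction). The median of that list was 0.11, its summed intensity 137718 before and 139038 at 24 h, and Col1a1 had a log2 ratio of -0.04. Of 6 smooth muscle markers, 4 were detected, Myh11 and Des did not count as detected, and the summed intensity was 28556 before and 22557 at 24 h. Of 6 adipocyte markers, 3 were more than 2-fold higher (Adipoq 2.29, Cidea 1.53 and Plin1 1.01). Pparg, of the same list, went the other way, with a log2 ratio of -0.27 ± 0.07. With normexp correction Adipoq came to 1.28, and Plin1 lay inside 2-fold at 0.62. The adipocyte list had a median of 0.98 and a summed intensity of 2936 before and 5035 at 24 h. The part of these cell types in the ratios of Efemp1 and Mfap2 was not tested.

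**Figure D5:**
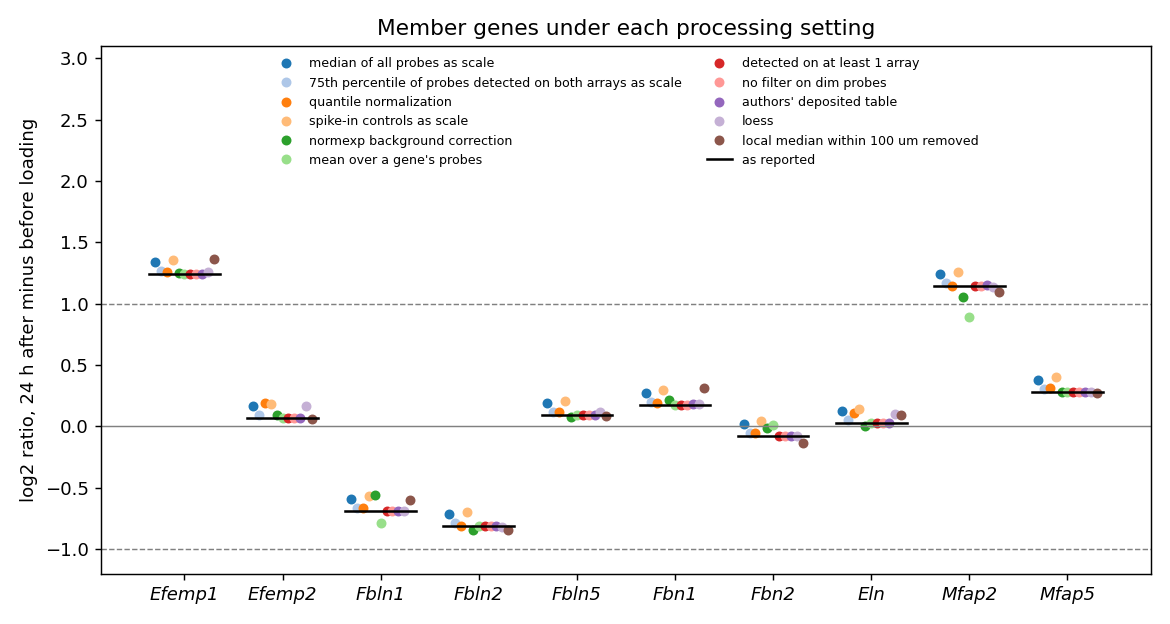
Log2 ratio (24 h after minus before loading) of each member as reported (black bar) and under each processing setting (coloured points); dashed lines mark 2-fold. Efemp1 stayed between 1.24 and 1.36, while Mfap2 lay inside 2-fold, at 0.89, with the mean of both its probes.

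Efemp1 kept its direction and its side of 2-fold under all 11 settings that gave a ratio, and Mfap2 under 10 of 11. Some settings could not have changed this. Looser detection filters leave both genes as they were, since their brightest probes were detected on both arrays. Averaging over probes leaves Efemp1, with its only probe, unchanged, and the deposited table holds the same intensities. Fbln1 lay between -0.79 and -0.56 and Fbln2 between -0.85 and -0.70. Scaling by array medians or spike-in controls raised the median of all detected genes from -0.01 to 0.08 and 0.10. On those scales the members' median was 0.18 and 0.20.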

How the data were processed

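Total RNA of 2 samples was labelled with Cy3 and hybridised to SurePrint G3 Mouse Gene Expression arrays, 1 per time point, and the images were read with Agilent Feature Extraction 10.10.1.1. The deposited values are each spot's background-subtracted intensity, with its error, its median signal and flags (0 or 1, other values), and without normalization between arrays. Their table of values holds the same intensities at 3 significant digits. Of 59305 non-control spots, 255 carried an outlier flag at either time point and were dropped. Spots of a probe were averaged, which gave 55678 probes, and 27235 were named through RefSeq accessions without versions (table of assembly GRCm38.p6, names only). Log2 intensities were scaled to the 75th percentile of each array, in place of a test, since 1 array per group allows none. Precision is limited by the number of arrays. The members and gene lists were chosen with earlier results of these data known. Named genes were all members, partner and marker genes past 2-fold, the 3 highest and 3 lowest partners and the 3 abundant genes nearest to Efemp1. Lox, Loxl1 to Loxl3, the other Ltbp and Tgfb genes, Fbln7, Fn1, Emilin1, Emilin2, Col2a1, Col11a1, Matn1, Col1a1, Pparg and the undetected markers were named after their values were seen. Protein features that had been foreseen were not used here. The closing section covers 9 alternatives and 3 more chosen after seeing the data. Python 3.11.15 (numpy 2.4.6, pandas 2.3.3, scipy 1.17.1), R 4.3.3 and limma 3.58.1 were used. The code for the calls was also run on simulated data. Its shifts were larger than the ratios of Efemp1 and Mfap2, with within-array error only, so it says nothing about calls near 2-fold.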

Additional observations from a re-analysis of the deposited data

How the results depend on the processing

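No paired analysis was possible because each time point was measured on a single array. Loess, removal of the local median within 100 µm and the allowance for error were chosen after seeing the data. When 2-fold had to be passed by more than 2 within-array errors, 0 members and 0 partner genes were called (0 higher and 0 lower), and among all detected genes 25 were higher and 99 lower. Averaging all probes of a gene, 1 member (Efemp1) was called in place of 2, by construction, since the dimmer Mfap2 probe has the lower ratio. With no filter on dim probes, 2 partner genes were lower in place of 1, Ltbp2 and Hmcn1, the second dim at both time points. Higher against lower calls over all detected genes were 95 and 260, but 130 and 205 on scaling to array medians, and 138 and 187 on scaling to spike-in controls. The medians of the members and of the partner list stayed above 0 under all 11 settings run for them, between 0.08 and 0.20 and between 0.06 and 0.19. The sign of Fbn2 was the reported one in 8 of 11 settings, and its value lay between -0.13 and 0.04. Counts over all detected genes came to 38 higher and 117 lower with normexp correction, to 192 and 507 where detection on 1 array sufficed, and to 492 and 983 with no filter on dim probes. Signal over background limits Eln and the dimmer probes of Fbln1 and Fbln5.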

Other observations

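Of 5 tenocyte and ligament markers, all 5 were detected and 0 passed 2-fold. Their median log2 ratio was -0.35, with 3 lower and 1 higher beyond the within-array error. That was 80.0% of the 5, against 43.4% of all detected genes. Their summed intensity was 4876 before loading and 3585 at 24 h. The 5 macrophage markers with a probe had a median log2 ratio of 0.09 and 0 passed 2-fold. Of 6 endothelial markers 3 were detected, 0 of them past 2-fold, while Cdh5, Tek and Emcn did not count as detected. Of 6 skeletal muscle markers 4 were detected, and 1 was more than 2-fold higher, against 0.668% of all detected genes. This was Myh8, a myosin of developing muscle, at 1.15, which fell inside 2-fold, to 0.63, with normexp correction.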
